A study of Saccharomyces cerevisiae with 2 samples.

Results

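The genes described here are SNR5, SNR8, SNR33, SNR43, SNR81 and SNR82, which encode the box H/ACA small nucleolar RNAs (snoRNAs) snR5, snR8, snR33, snR43, snR81 and snR82 of Saccharomyces cerevisiae. They were chosen by name because their annotated pseudouridylation sites include at least 1 position between 960 and 1124 of the 25S rRNA. snR44 and snR49, which have a site in the same stretch beside sites in 18S rRNA, are not among the 6 and serve as a comparison below. They are 6 of the 76 features in the snoRNA class of the counts, which includes NME1 and of which 29 are box H/ACA. They are also 6 of 5758 features with at least 1 read. All 6 had reads in both libraries, and all 6 passed the minimum count used below.

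The data are 2 libraries of cross-linking and analysis of cDNA (CRAC), in which RNA is joined by UV light to the proteins in contact with it, a tagged protein is purified with its RNA fragments, and these are sequenced as cDNA. By the labels and the strain table of the study, 1 library came from BY4741 with the genotype MATa his3 leu2 met15 ura3 and no tag, named the untagged control here, and the other from the same background with SNI445-HTP::klURA3, in which Sni445 carries a C-terminal tag of His6, a TEV protease site and protein A at its own chromosomal locus. Both cultures were grown in YNB medium without tryptophan, with glucose, to an optical density of 0.6, irradiated for 100 seconds and amplified with 16 PCR cycles. Since each strain has a single library, replicate error is unknown and no test between strains was possible. Every interval below is an exact 95% interval for counting error only, and PCR copies of a molecule are not independent reads.

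Box H/ACA snoRNAs fold into hairpins followed by an H box or an ACA box, and assemble with the pseudouridine synthase Cbf5 and with Gar1, Nhp2 and Nop10. An internal loop of a hairpin, the pseudouridylation pocket, pairs with rRNA on both sides of a uridine and so places that uridine in the active site. Sni445 is the protein that the study describes with snR4 and snR45, which are box C/D snoRNAs that guide cytidine acetylation of 18S rRNA and thus belong to the other large class of snoRNA.

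The sequences of the members are shown because their antisense elements define the set. They are the RefSeq genes of the R64 assembly written as DNA, 5′ to 3′, with the stretches that match 25S rRNA around an annotated site in capitals. The positions are chrXV:842403-842606 on the plus strand for snR5, chrXV:832332-832521 on the plus strand for snR8, chrIII:142364-142546 on the minus strand for snR33, chrIII:107504-107712 on the minus strand for snR43, chrXV:234346-234546 on the plus strand for snR81 and chrVII:316788-317055 on the plus strand for snR82.
snR5: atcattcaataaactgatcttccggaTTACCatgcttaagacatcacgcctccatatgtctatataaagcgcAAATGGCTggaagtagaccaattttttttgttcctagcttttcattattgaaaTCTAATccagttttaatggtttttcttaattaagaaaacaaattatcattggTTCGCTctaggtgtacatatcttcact
snR8: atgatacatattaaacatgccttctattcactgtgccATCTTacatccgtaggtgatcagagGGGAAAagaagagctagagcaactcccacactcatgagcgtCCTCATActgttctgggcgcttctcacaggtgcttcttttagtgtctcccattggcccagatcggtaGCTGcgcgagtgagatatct
snR33: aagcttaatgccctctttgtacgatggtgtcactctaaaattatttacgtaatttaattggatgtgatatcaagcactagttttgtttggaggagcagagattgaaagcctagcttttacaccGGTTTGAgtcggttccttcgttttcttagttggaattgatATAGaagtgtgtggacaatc
snR43: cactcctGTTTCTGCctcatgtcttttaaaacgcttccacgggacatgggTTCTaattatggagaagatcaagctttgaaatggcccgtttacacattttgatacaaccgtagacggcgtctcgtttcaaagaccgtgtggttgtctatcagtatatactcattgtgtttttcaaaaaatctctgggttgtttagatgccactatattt
snR81: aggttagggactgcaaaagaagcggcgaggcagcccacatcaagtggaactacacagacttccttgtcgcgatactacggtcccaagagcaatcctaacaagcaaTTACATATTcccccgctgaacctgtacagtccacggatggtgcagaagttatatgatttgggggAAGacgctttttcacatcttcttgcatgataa
snR82: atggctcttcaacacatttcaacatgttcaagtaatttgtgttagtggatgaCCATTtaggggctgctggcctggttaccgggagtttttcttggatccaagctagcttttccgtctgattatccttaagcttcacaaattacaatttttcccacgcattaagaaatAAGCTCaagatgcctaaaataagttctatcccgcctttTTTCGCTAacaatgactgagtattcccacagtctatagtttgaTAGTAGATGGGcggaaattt

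The lengths are 204 nt for snR5, 190 nt for snR8, 183 nt for snR33, 209 nt for snR43, 201 nt for snR81 and 268 nt for snR82. All 6 lie outside other annotated genes of R64. The gene of snR5 has a box H/ACA neighbour on the opposite strand, SNR31, at 220 nt to the left, and the gene of snR33 has the tRNA gene SUF16 154 nt to its right on the same strand.

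The rRNA stretches below are the partners of those elements, shown as the RNA-like strand of RDN25-1 on chromosome XII, minus strand, written as DNA. RDN25-1 is 3396 nt long, and the same 26 nt stretches are found in RDN25-2. Capitals mark bases opposite an element, and the target uridine is the first of the lower-case pair of bases between them.
25S U1004 (snR5), chrXII:454165-454190: aggtaaAGCGAAtgATTAGAggttcc
25S U1124 (snR5), chrXII:454045-454070: agtgGGCCATTTttGGTAAgcagaac
25S U960 (snR8), chrXII:454209-454234: ccgaagTTTCCCtcAGGATagcagaa
25S U986 (snR8), chrXII:454183-454208: gctcgtatCAGTttTATGAGGtaaag
25S U1042 (snR33), chrXII:454127-454152: accttgacCTATtcTCAAACTttaaa
25S U966 (snR43), chrXII:454203-454228: tttccctcAGGAtaGCAGAAGCtcgt
25S U1052 (snR81), chrXII:454117-454142: attctcaaaCTTtaAATATGTAAgaa
25S U1110 (snR82), chrXII:454059-454084: aatgaaGAGCTTttAGTGGgccattt
25S U2349 (snR82), chrXII:452820-452845: cCCTATCTACTAtcTAGCGAAAccac

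By the RefSeq notes, snR5 guides U1004 and U1124, snR8 guides U960 and U986, snR33 guides U1042, and snR43 guides U966 and position 73 of 5.8S rRNA. snR81 guides U1052 together with position 42 of the U2 snRNA, and under stress position 93 of the U2 snRNA. snR82 guides U1110 and the later sites U2349 and U2351. The members thus hold 8 annotated sites below position 1200 of 25S rRNA and 2 above it.

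The search paired each member with the bases on both sides of a uridine, in elements of 3 to 12 nt separated by 15 to 110 nt, with an H box (ANANNA) or, within the last 25 nt, an ACA box (ACA, AAA or ATA) 13 to 17 nt from the first base of the right element. Only the snoRNA strand was read. This box rule was set with the matches in view. The matches are letters only, and no structure was tested. Both pockets of snR5 had 12 Watson-Crick pairs, and 2 of the 78 other uridines between positions 900 and 1200 reached as many. The pocket of snR81 for U1052 also had 12 pairs, and 0 of the other 78 uridines reached that. The pockets of snR8 for U960 and U986, of snR33 for U1042, of snR43 for U966 and of snR82 for U1110 had 10 pairs each, a number reached by 1 to 4 of 78 others. The element pair of snR82 for U1110 lay 110 nt apart, at the limit of the search. The longest match was that of snR82 with U2349, 18 pairs, and the same pocket gave 17 pairs for U2351.

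The libraries differ strongly in what fills them. Mapped reads numbered 21867727 with Sni445-HTP and 12654405 in the untagged control, and a read on several features was counted on each. snR4 and snR45 took 79.5% of the sense counts with Sni445-HTP and 1.42% in the control, while rRNA took 2.32% and 69.7%. The other 74 features of the snoRNA class had 0.139% and 6.23%. A share of all counts therefore has very different company in each library, and the ratios below are set beside the median of all features tested.

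The 6 snoRNAs had fewer reads with Sni445-HTP than in the control, and similar summed numbers of distinct cDNAs. Together they had 2701 sense reads with Sni445-HTP against 39270 in the control, which is 0.0100% (0.00964 to 0.0104) and 0.171% (0.169 to 0.173) of the sense counts. They had 646 and 776 distinct cDNAs, or 0.337% (0.312 to 0.364) and 0.157% (0.146 to 0.169) of the cDNAs on features without antisense reads. The share was thus lower with Sni445-HTP in reads and higher in cDNAs, in each case beyond counting error. The direction in reads holds for shares of all counts: over the other snoRNAs as denominator, under median-ratio scaling and under TMM scaling, the median read ratio of the members was 3.73, 3.38 and 2.91, with snR8 alone below 1 in each. Over the other snoRNAs, however, the interval of snR8 (0.853 to 1.04) included 1. No member had an antisense read, so their cDNA numbers belong to the sense strand.

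**Figure D1:**
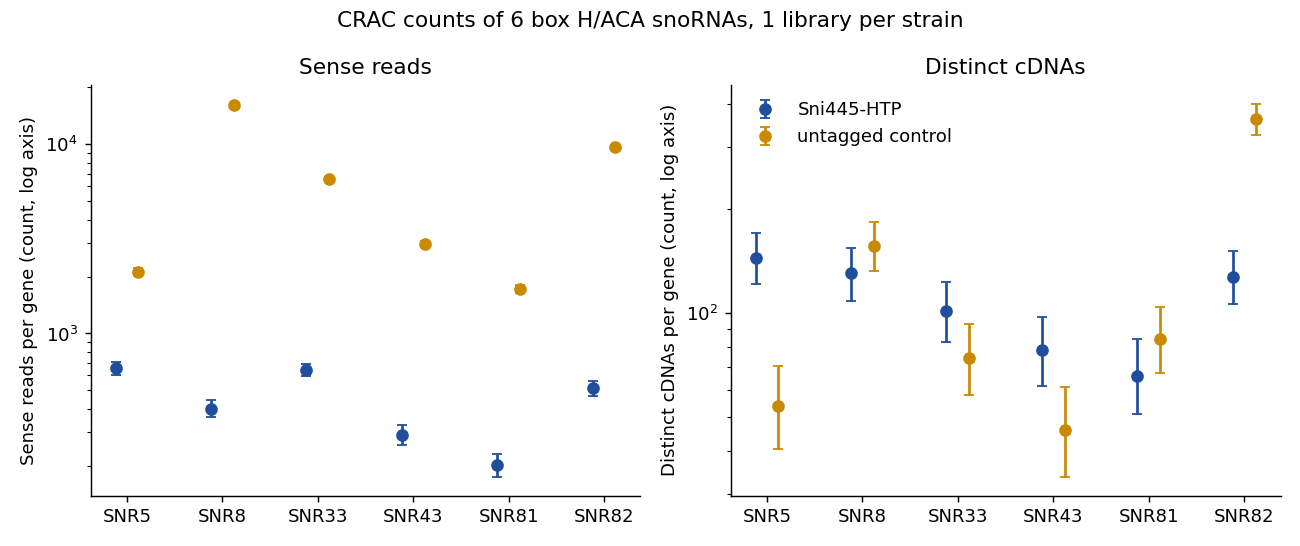
Sense reads (left) and distinct cDNAs (right) of each snoRNA under the 1000 limit on read length, on log axes, with 1 point per library and exact Poisson 95% intervals. In reads all 6 control points lie above the Sni445-HTP points, with 1718 to 16181 against 201 to 654, whereas in cDNAs the intervals of the libraries overlap for snR8, snR33 and snR81.

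snR5, which guides both an inner and the last site of the stretch, had 654 reads in 144 cDNAs with Sni445-HTP and 2119 reads in 54 cDNAs in the control. Its ratio of shares, Sni445-HTP over control, was 0.263 (0.240 to 0.287) in reads and 6.87 (4.99 to 9.58) in cDNAs. Both are the highest of the 6, and snR5 was the only member whose read ratio stayed above the 0.25 used as the limit for a lower call. That place depends on the denominator, since its ratio was 0.179 over mapped reads, 0.0815 without rRNA in the denominator and 0.227 with sense and antisense reads together. The Poisson intervals of its cDNA counts did not overlap between the libraries (121 to 170 with Sni445-HTP against 40.6 to 70.5).

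snR8, the guide of the first site of the stretch, was the most abundant member in the control in reads. It had 401 reads in 130 cDNAs with Sni445-HTP and 16181 reads in 156 cDNAs in the control. Its read ratio of 0.0211 (0.0191 to 0.0233) was the lowest of the 6, and its cDNA ratio was 2.15 (1.69 to 2.73). Its place among the members thus differs between the units.

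snR33 and snR43, whose genes both lie on chromosome III, had nearly the same read ratio. snR33 had 641 reads in 101 cDNAs with Sni445-HTP and 6547 in 74 in the control, a ratio of 0.0833 (0.0767 to 0.0904) in reads and 3.52 (2.58 to 4.81) in cDNAs. snR43, which also serves 5.8S rRNA, had 291 reads in 78 cDNAs and 2977 in 46, with ratios of 0.0832 (0.0735 to 0.0938) and 4.37 (3.0 to 6.43). The intervals of these members overlap in both units, so no difference between them was detectable at this depth.

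snR81, the member that also modifies U2 snRNA of the spliceosome, was the least abundant in reads in both libraries. It had 201 reads in 66 cDNAs with Sni445-HTP and 1718 reads in 84 cDNAs in the control, with ratios of 0.0995 (0.0856 to 0.115) in reads and 2.02 (1.44 to 2.83) in cDNAs. snR82, which has the longest gene and later 25S sites, had 513 reads in 127 cDNAs and 9728 reads in 362 cDNAs. Its read ratio was 0.0449 (0.0410 to 0.0490), and its cDNA ratio of 0.904 (0.732 to 1.11) was the lowest of the 6 and the only one whose interval included 1.

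A fold of 4 was used as a call, for features with at least 100 reads or 10 cDNAs in the libraries together. In reads, 5 of the 6 members were called lower with Sni445-HTP and 0 higher. Among all 949 features tested, 94.6% were called lower and 4% higher by the same rule, so the members' count is near the background and is no result about them. In cDNAs, 2 of the 6, snR5 and snR43, were called higher and 0 lower, beside 12.8% higher and 28% lower among 935 features. These 935 were drawn only from features without antisense reads in either library.

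The median ratio of the members was 0.0832 in reads and 2.83 in cDNAs. Over all tested features it was 0.0112 in reads, a log2 value of -6.48. Over the features tested in cDNAs, which leave out those with antisense reads, it was 0.515, a log2 value of -0.96. Of the features tested in reads, 158 were at 0 with Sni445-HTP and 27 at 0 in the control, and they entered at a floor of 3 counts per library. Of all 5758 features, 4339 had no sense read in the control, and only these 27 of them passed the minimum. The median in reads is thus mainly one of features with control reads, and standing above it compares the members mainly with those. Set beside the median of the tested features, which no common scaling of the libraries changes, every member was higher with Sni445-HTP under the 1000 limit. In reads within the 30 limit described below, snR8 stood at 0.865 times the median. In reads snR5 stood at 23.5 times the median, snR81 at 8.90, snR33 at 7.45, snR43 at 7.44, snR82 at 4.01 and snR8 at 1.89. In cDNAs the values were 13.3 for snR5, 8.48 for snR43, 6.82 for snR33, 4.17 for snR8, 3.93 for snR81 and 1.75 for snR82. snR5 led in both units. The lowest place was held by snR8 in reads and by snR82 in cDNAs.

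**Figure D2:**
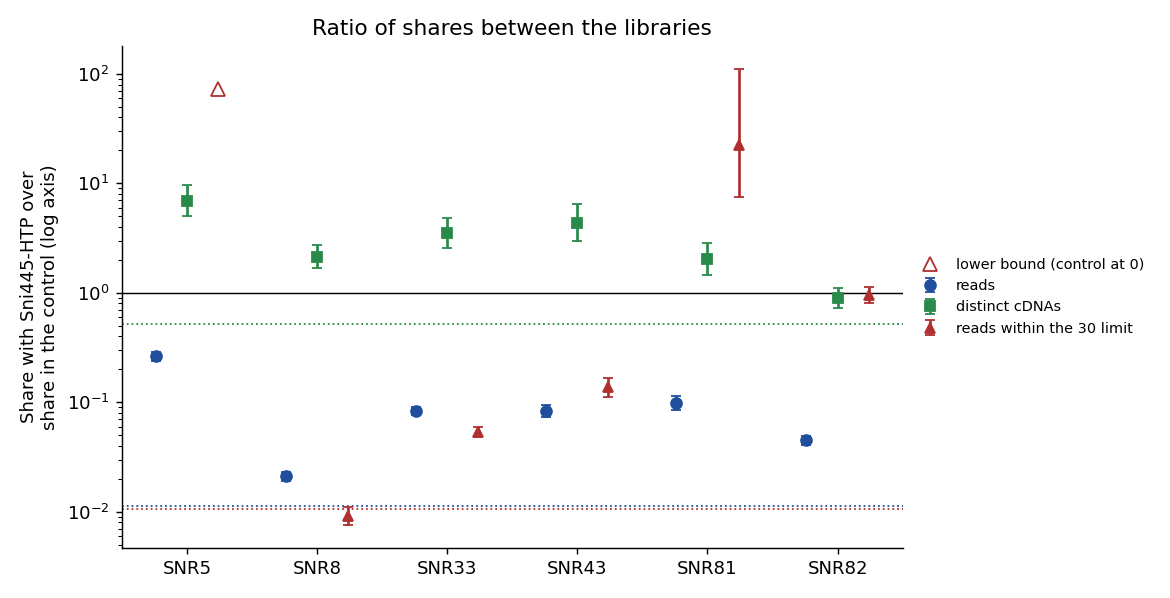
Share with Sni445-HTP over share in the control for each snoRNA, on a log axis, in reads (circles), distinct cDNAs (squares) and reads within the 30 limit (triangles), with exact 95% intervals. Dotted lines are the medians of all tested features in the same colour, the solid line marks equal shares, and the open triangle of snR5 is a lower bound of 73.1, because its control count there is 0.

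The other box H/ACA snoRNAs of the list covered a range that includes the members. Of these 23, 17 were called lower and 4 higher in reads, with a median ratio of 0.0888, and 2 were called lower and 7 higher in cDNAs, with a median of 2.33. Of the 23, 3 had no control read and entered at the floor, and the medians of the other 20 were 0.0651 and 1.79. No member was at 0. The box C/D snoRNAs other than snR4 and snR45 had a median of 0.0601 in reads over the 31 of 44 that passed the minimum, and of 6.09 in cDNAs over 41. Of these, 8 in reads and 18 in cDNAs were at 0 in the control and passed the minimum through Sni445-HTP alone, and the 23 above 0 had medians of 0.0271 and 1.43. The order of the classes in cDNAs thus depends on the snoRNAs at the floor.

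snR44 and snR49 guide sites within the same stretch, U1056 and U990, beside sites in 18S rRNA. snR44 had 614 reads with Sni445-HTP against 4861 in the control, with ratios of 0.107 in reads and 3.86 in cDNAs. snR49 had 654 reads in 139 cDNAs with Sni445-HTP, close to snR5, and 0 in the control, where snR5 had 2119. The share of snR49 in reads was at least 185-fold higher with Sni445-HTP, against a floor of 3 control counts. That value follows from the floor, with 556 at a floor of 1 and 55.6 at a floor of 10. In cDNAs it was at least 119 at the floor of 3. The neighbouring snR31, on the other strand beside snR5, likewise counted 761 reads with Sni445-HTP against 8 in the control. Thus snR5, snR31, snR44 and snR49 had 614 to 761 reads each with Sni445-HTP and from 0 to 4861 in the control.

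The level within the snoRNA class does not involve snR4, snR45 or rRNA. Of the reads on the 74 snoRNA features other than snR4 and snR45, the members had 7.19% (6.93 to 7.45) with Sni445-HTP against 2.74% (2.72 to 2.77) in the control, and of the cDNAs 7.42% (6.88 to 7.99) and 2.78% (2.6 to 3.0). Reads and cDNAs gave the same picture here. In the control, however, snR10, snR42, snR37 and snR190 held 61.9% of those reads, against 17.3% with Sni445-HTP. These 4 had the most control reads of the 74, a choice made after their values were seen. Without them the members had 8.69% (8.4 to 9.0) and 7.20% (7.13 to 7.27) of the reads. Of the cDNAs the members then had 9.02% (8.37 to 9.71) and 7.03% (6.56 to 7.52). Leaving out more of the control total than of the Sni445-HTP total narrows the difference by itself, so the narrowing is no result. The difference that remained belongs to this choice of 4, and its intervals did not overlap.

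Levels were compared between members per 100 nt of gene length. With Sni445-HTP they ran from 350 reads per 100 nt for snR33 (324 to 378) and 321 for snR5 (296 to 346), whose intervals overlap, through 211 for snR8 and 191 for snR82, which overlap as well, to 139 for snR43 and 100.0 for snR81. In the control the range was wider, from 8516 reads per 100 nt for snR8 down to 855 for snR81, with snR82 (3630) and snR33 (3578) overlapping. In cDNAs per 100 nt with Sni445-HTP the order was snR5 (70.6), snR8 (68.4), snR33 (55.2), snR82 (47.4), snR43 (37.3) and snR81 (32.8), and the intervals of all neighbours in it overlapped. In the control it was snR82 (135), snR8 (82.1), snR81 (41.8), snR33 (40.4), snR5 (26.5) and snR43 (22.0). Only at the steps from snR82 to snR8 and from snR8 to snR81 did the intervals of neighbours lie apart. Overlap of intervals is not a test of a step. snR5 therefore stood first with Sni445-HTP and next to last in the control.

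Among all 76 features of the snoRNA class the members stood at ranks 21 to 46 in reads with Sni445-HTP. In the control, where 52 of these features had reads, they stood at ranks 17 to 46. By the distance over 4 log2 shares (reads and cDNAs in each library), the snoRNAs outside the set most like the members' median were snR44 (0.64), the box H/ACA snoRNA snR191 (0.68) and the box C/D snoRNA snR63 (0.88). The members themselves lay 0.78 (snR33) to 2.49 (snR82) from it.

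The number of reads behind each cDNA separated the libraries for every member. With Sni445-HTP it was 6.35 for snR33, 4.54 for snR5, 4.04 for snR82, 3.73 for snR43, 3.08 for snR8 and 3.05 for snR81. In the control it was 104 for snR8, 88.5 for snR33, 64.7 for snR43, 39.2 for snR5, 26.9 for snR82 and 20.5 for snR81. The libraries did not overlap, with a median of 3.89 against 52.0. The other box H/ACA snoRNAs with at least 10 cDNAs had a median of 4.12 (range 2.90 to 7.66, 23 snoRNAs) with Sni445-HTP and of 47.0 (28.9 to 79.1, 19 snoRNAs) in the control. In the control, snR8 and snR33 were above and snR82 and snR81 below that range. With Sni445-HTP all 6 were inside it. The part of this difference in the read ratios was not tested.

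**Figure D3:**
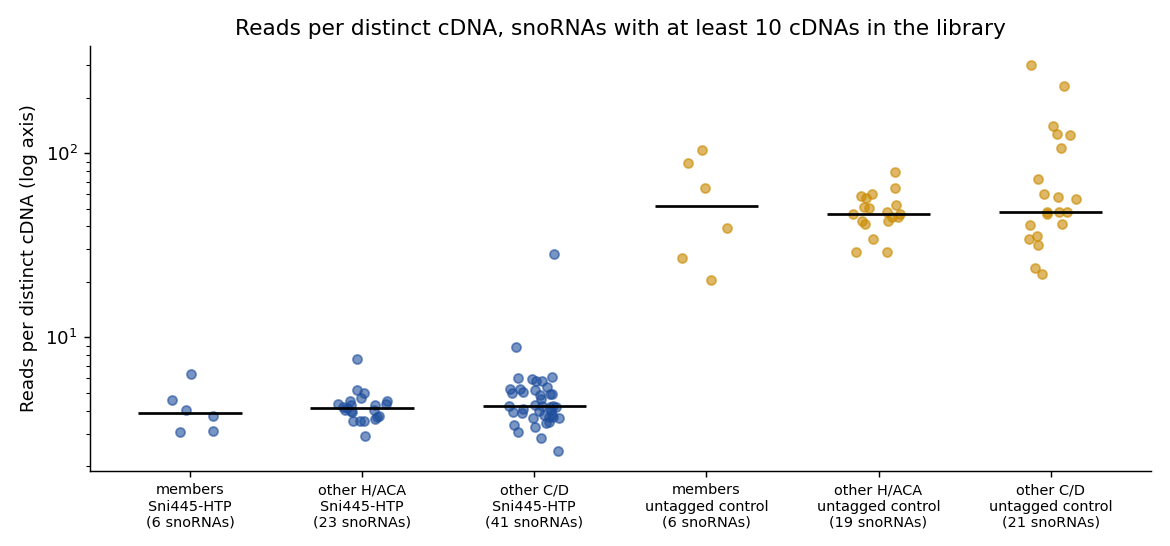
Reads per distinct cDNA on a log axis for the 6 members, the other box H/ACA and the other box C/D snoRNAs, each with at least 10 cDNAs in the library, 1 point per snoRNA and a line at the median. The members sit at 3.05 to 6.35 with Sni445-HTP and at 20.5 to 104 in the control, and the 23 other box H/ACA snoRNAs with Sni445-HTP at 2.90 to 7.66.

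The counts were deposited under read length limits of 1000 and 30, and every count under the 30 limit was contained in that under the 1000 limit. Their quotient gives the share of short reads. With Sni445-HTP the share of reads within the 30 limit was 69.4% (65.7 to 73.0) for snR33, 66.3% (62.0 to 70.4) for snR82, 54.2% (47.1 to 61.3) for snR81, 53.8% (49.9 to 57.7) for snR5, 41.6% (35.9 to 47.5) for snR43 and 27.7% (23.4 to 32.3) for snR8. In the control it was 79.0% (78.0 to 80.0) for snR33, 46.3% (45.5 to 47.0) for snR8 and 18.5% (17.1 to 19.9) for snR43. The other members had almost no short reads in the control, with 2.28% (1.99 to 2.60) for snR82 and 0.175% (0.0360 to 0.509) for snR81. For snR5, 0 of 2119 control reads were within the limit, which allows a share of up to 0.174% by the exact interval.

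In cDNAs, 3 members differed in this share between the libraries and 3 did not beyond counting error. For snR5 the share within the limit was 48.6% (40.2 to 57.1) of 144 cDNAs with Sni445-HTP and 0% (0 to 6.60) of 54 in the control. For snR81 it was 50% (37.4 to 62.6) of 66 and 1.19% (0.0301 to 6.46) of 84, and for snR82 52.8% (43.7 to 61.7) of 127 and 4.70% (2.76 to 7.41) of 362. For these 3 the intervals of the libraries lay far apart. For snR33 the values were 60.4% (50.2 to 70.0) and 60.8% (48.8 to 72.0), for snR8 28.5% (20.9 to 37.0) and 35.3% (27.8 to 43.3), and for snR43 42.3% (31.2 to 54.0) and 26.1% (14.3 to 41.1). The intervals overlap for each of these, so no difference was detectable at this depth. Over the 6 together, 46.6% (42.7 to 50.5) of the cDNAs were within the limit with Sni445-HTP against 16.8% (14.2 to 19.6) in the control, beside 43.2% and 14.1% for the 23 other box H/ACA snoRNAs and 48.5% and 20.5% for the other box C/D snoRNAs. The direction of the members' sum was therefore shared by these classes.

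**Figure D4:**
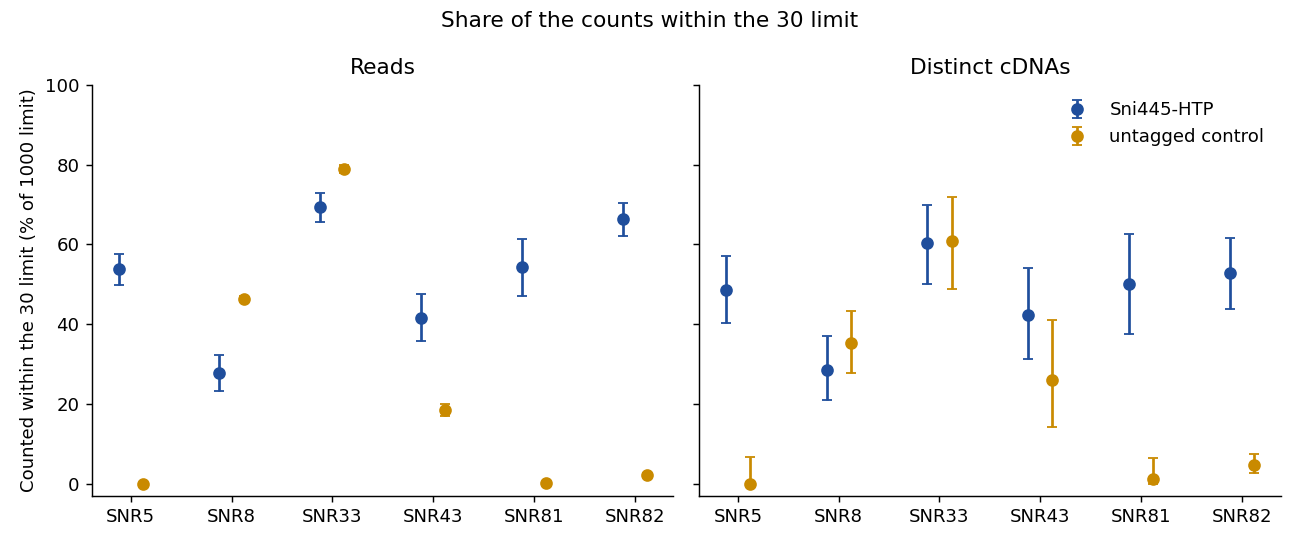
Percent of the reads (left) and of the distinct cDNAs (right) under the 1000 limit that are also counted under the 30 limit, for each snoRNA and library, with exact Clopper-Pearson 95% intervals. Control points of snR5, snR81 and snR82 lie at 0% to 4.70% in both panels while their Sni445-HTP points lie at 48.6% to 66.3%, and the libraries overlap in cDNAs for snR8, snR33 and snR43.

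In reads, the ratio between the libraries depended on read length. Within the 30 limit snR5 had 352 reads with Sni445-HTP against 0 in the control, and its share was at least 73.1-fold higher against a floor of 3 counts. snR81 had 109 and 3, a ratio of 22.6 (7.54 to 111), although the 3 control reads come from 1 cDNA. snR82 had 340 and 222, a ratio of 0.954 (0.803 to 1.14) that does not differ from 1 beyond counting error. The other members were lower in reads. The ratio was 0.137 (0.112 to 0.167) for snR43 from 121 against 550 reads. It was 0.0536 (0.0485 to 0.0591) for snR33 from 445 against 5173, and 0.00924 (0.00759 to 0.0111) for snR8 from 111 against 7485. By the call of 4 in reads, 2 members were higher and 3 lower. Of the 551 features tested under that limit, 7.62% were higher and 88.9% lower, with a median ratio of 0.0107. In cDNAs within the limit, the ratio was 5.06 (2.94 to 9.20) for snR82 and 3.53 (1.78 to 7.51) for snR43. It was 1.74 (1.17 to 2.62) for snR33 and 0.864 (0.554 to 1.34) for snR8, whose interval includes 1. For snR81 it was 42.4 (7.10 to 1725) from 33 against 1 cDNA, and for snR5 at least 29.98 at the floor. Thus snR33 and snR43 were lower in reads but higher in cDNAs within the limit.

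In reads beyond the 30 limit all members were lower with Sni445-HTP. The ratios were 0.163 (0.144 to 0.184) for snR5 from 302 and 2119 reads, and 0.163 (0.140 to 0.190) for snR33 from 196 and 1374 reads. They were 0.0802 for snR43, 0.0614 for snR81, 0.0382 for snR8 and 0.0208 for snR82, beside a median of 0.0124 over 687 features. For snR8 and snR33 the ratio was higher in the long reads than in the short ones. For snR5, snR81, snR82 and snR43 it was lower. For the 5 members with an interval in both length classes those intervals did not overlap, but they count PCR copies as separate reads. In cDNAs, the shares within the 30 limit had overlapping intervals between the libraries for snR8, snR33 and snR43. No dependence on read length was therefore detectable in cDNAs for these members. A like split by read length was seen outside the set. snR44 had 5 of its 4861 control reads within the limit (0.103%), and a ratio of 38.9 (16.5 to 121) within it against 0.0712 (0.0632 to 0.0800) beyond it. Of the other snoRNAs named as most like the members, snR63 had 0.614% of its control reads within the limit and snR191 had 47.7%.

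Reads on a member could be counted a second time on a feature that shares its place in the authors' annotation. snR33 and the protein-coding feature YCR015C had the same sense reads and cDNAs in all 4 count files, and so had snR82 and USE1. In R64 the nearest annotated ends of CTO1, the present name of YCR015C, and of USE1 lie 193 nt and 286 nt away, so the features of the authors' build are not those of R64. The counts of YCR015C and USE1 therefore cannot be told apart from those of the snoRNAs. Intergenic features on the other strand had antisense reads equal to snR5 and snR43, and within 5 reads of snR8. The tRNA gene SUF16 beside snR33 had 34 reads with Sni445-HTP against 5009 in the control, and the other neighbours in R64 that are listed, YTM1, VMA9, LDB16 and SPE2, had at most 5 sense reads in a library. VMA9, which faces snR43 from the opposite strand, also had 73 antisense reads with Sni445-HTP against 0 in the control.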

How the data were processed

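Strains were assigned to the libraries from the labels and the study's strain table. The sequencer is a NextSeq2000 by the methods but a MiSeq by the labels, which call the molecule genomic. By the methods and file headers, the authors separated libraries by an index with 3 random bases, checked reads with FastQC 0.12.1, aligned them to EF2.59 with Novoalign 3.09.00, placing reads with several matches at random, and counted them with pyReadCounters (Counters 1.4.4). The deposited values are whole counts per feature without normalization, namely sense reads, antisense reads and distinct cDNAs, under limits of 30 and 1000 on read length. The rule that collapses reads into cDNAs is not given in the sources used here, and cDNAs are not split by direction.

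The share of a feature was its sense reads over all sense counts, or its cDNAs over those of the 3059 features without antisense reads in either library. This cDNA denominator was chosen after seeing the data, and the features tested in cDNAs were drawn from the same 3059. Shares have exact Clopper-Pearson intervals, counts exact Poisson intervals and ratios exact conditional binomial intervals, all at 95%, computed with scipy 1.17.1 and numpy 2.4.6 (Python 3.11.15). A library at 0 was set to a floor of 3 counts. The rule for a call higher was tested on simulated read counts of 990 features with counting error only. It called 100% of 200 features raised 8-fold and 0 of 790 unchanged ones. Calls lower were not scored, and a shift between the libraries like that of snR4 and snR45 was not simulated. Plots used matplotlib 3.10.9. TMM factors came from edgeR 4.0.16 in R 4.3.3, used only for scaling. Alternatives were the 30 limit, cDNAs, other denominators, antisense reads added, median-ratio and TMM scaling, floors of 1 and 10, folds of 2 and 8, and minimums of 50, 500 or no reads. The R64 genome, another build than that of the counts, gave gene places and sequences by gene name only.

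The 6 members and the list of 23 other box H/ACA snoRNAs were chosen with earlier results of these data known. Named besides the members were that list, snR44 and snR49 as guides of the same stretch, the 3 snoRNAs nearest to the members' median, and features beside or overlapping a member. snR10, snR42, snR37 and snR190 were named after their values were seen. Positions of reads within genes were not analysed here.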

Additional observations from a re-analysis of the deposited data

How the results depend on the processing

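Under the 1000 limit all 6 read ratios were below 1 with all sense counts, with mapped reads or with the counts other than rRNA as the denominator, and with antisense reads added. With mapped reads as the denominator the median ratio was 0.0566, without rRNA in it 0.0258, with sense and antisense reads together 0.0721 and under the 30 limit 0.546. Over the snoRNAs other than snR4 and snR45 it was 3.73, and the ratio was 11.8 for snR5, 3.73 for snR33, 3.72 for snR43, 4.46 for snR81 and 2.01 for snR82. Under median-ratio scaling the median was 3.38, with 10.7 for snR5, 3.38 for snR33, 3.37 for snR43, 4.04 for snR81 and 1.82 for snR82. Under TMM scaling it was 2.91, with 9.19 for snR5, 2.92 for snR33, 2.91 for snR43, 3.49 for snR81 and 1.57 for snR82. These denominators and scalings multiply every feature by 1 factor, and snR8 stayed below 1 under each. It was at 0.944 (0.853 to 1.04) over the other snoRNAs, an interval that includes 1. Under median-ratio scaling snR8 was at 0.855 (0.773 to 0.945) and under TMM scaling at 0.738 (0.667 to 0.815). Under the 30 limit, with all sense counts as the denominator, the ratio of snR5 was at least 73.1 and that of snR81 was 22.6.

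In distinct cDNAs the median was 2.83, with 6.87 for snR5, 2.15 for snR8, 3.52 for snR33, 4.37 for snR43, 2.02 for snR81 and, the only one below 1, 0.904 for snR82. Over the cDNAs of all features, added after seeing the data, it was 2.74, with 6.65 for snR5, 2.08 for snR8, 3.40 for snR33, 4.23 for snR43, 1.96 for snR81 and 0.875 for snR82. Over the cDNAs of the snoRNAs other than snR4 and snR45, likewise added, it was 3.52, with 8.55 for snR5, 2.67 for snR8, 4.38 for snR33, 5.44 for snR43, 2.52 for snR81 and 1.13 for snR82. The cause of the difference between reads and cDNAs was not tested.

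The number of members called higher, 0 in reads, was 2 under the 30 limit, in cDNAs, over the other snoRNAs, under median-ratio scaling and over the cDNAs of all features, 1 under TMM scaling and 3 over the cDNAs of the other snoRNAs. The number called lower, 5 in reads, was 3 under the 30 limit, 0 under each of the other settings just named, and 6 with mapped reads as the denominator, without rRNA in it and with sense and antisense reads together, where snR5 passed as well. Over all 949 features, 104 were called higher and 328 lower over the other snoRNAs, 96 and 359 under median-ratio scaling, and 84 and 383 under TMM scaling. Over 935 features in cDNAs, 139 and 203 were called over the cDNAs of the other snoRNAs, and 119 and 267 over those of all features. Lower calls were 908 of 949 with mapped reads, 911 of 949 without rRNA and 1640 of 1716 with antisense reads added. In reads over all sense counts, folds of 2 and 8, other minimums and other floors left the calls within 1 member. These alternatives were not run in cDNAs, where the calls depend on the fold. The cDNA ratios of snR33 (3.52), snR8 (2.15) and snR81 (2.02) lie between folds of 2 and 4. The highest, 6.87 for snR5, is below 8.

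No paired analysis was possible because each strain has 1 library. The counting error of the smallest cDNA counts, 46 and 54 in the control, limits differences between members. The 3 control reads and 1 cDNA behind the 30 limit ratio of snR81, and the 0 behind that of snR5, do not bound the recovery of these RNAs in another library.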
